A study of Mus musculus with 8 samples.

Results

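Catalase, the superoxide dismutases, the glutathione peroxidases and their partners are the enzymes that remove superoxide and peroxides from liver cells. The 10 genes described here, *Cat*, *Sod1*, *Sod2*, *Sod3*, *Gpx1*, *Gpx3*, *Gpx4*, *Selenop*, *Prdx3* and *Prdx5*, were taken by symbol from a table of 16540 gene symbols, and all 10 were in it. They were measured by RNA sequencing in the livers of 4 vehicle-treated and 4 ISOGK-treated mice. All 8 mice carried the *Apoe*-/- genotype, which raises plasma cholesterol, and were fed a Western diet. The ISOGK group received isoginkgetin (ISOGK), a plant biflavonoid, by intraperitoneal injection at 20 mg/kg per day for 8 weeks, and the control group received the vehicle for the same time. The series title gives the mice as male, and their age is not stated in the labels used here. Biflavonoids are studied as antioxidants, and the comparison asks whether transcripts of the enzymes that handle reactive oxygen differed between the groups.

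Superoxide, which leaks from the respiratory chain and is made by oxidases, is turned into hydrogen peroxide by superoxide dismutases. These sit in the cytosol (*Sod1*), in mitochondria (*Sod2*) and outside the cell (*Sod3*). Hydrogen peroxide is then removed by catalase in peroxisomes, by glutathione peroxidases at the cost of glutathione, and by peroxiredoxins at the cost of thioredoxin. The liver is also the main source of selenoprotein P in plasma, which carries selenium to other organs, while plasma glutathione peroxidase 3 comes mainly from the kidney.

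*Gpx1*, *Gpx3*, *Gpx4* and *Selenop* share a feature of sequence that the other 6 genes lack, which is a TGA codon read as selenocysteine instead of as a stop. The coding sequences were read from GENCODE M21 on GRCm38. *Gpx1*, *Gpx3* and *Gpx4* each held 1 such codon before their stop codon, *Selenop* held 10, and the other 6 held 0. The first of these codons is shown in capitals below, with 12 bases on either side, written 5′ to 3′ on the coding strand, because this codon encodes the catalytic residue of the 3 peroxidases.
Gpx1, codon 47, exon 1, chr9:108339439-108339465, plus strand: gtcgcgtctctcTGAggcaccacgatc
Gpx3, codon 73, exon 2, chr11:54907244-54907270, plus strand: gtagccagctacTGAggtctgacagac
Gpx4, codon 73, exon 3, chr10:80054725-80054751, plus strand: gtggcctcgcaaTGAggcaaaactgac
Selenop, codon 59, exon 2, chr15:3274836-3274862, plus strand: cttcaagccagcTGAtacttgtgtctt
Over these 27 bases *Gpx1* and *Gpx4* were identical at 17 positions, *Gpx3* and *Gpx4* at 16, and *Gpx1* and *Gpx3* at 13.

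Between 19605286 and 24461854 reads per vehicle-treated mouse and between 17457106 and 21626399 per ISOGK-treated mouse were counted on genes. *Apoe*, the gene knocked out in both groups, had 3252 to 6489 counts per library, so the genotype is known from the labels and not from the counts. Markers of hepatocytes, such as *Alb*, summed to between 144300 and 156200 CPM (counts scaled to a common library size with edgeR's TMM factors) with vehicle and between 130400 and 168900 with ISOGK, and 0 of 6 passed the test in edgeR, DESeq2 or limma-voom or had an unadjusted p under 0.05. Vehicle-treated mouse 4 carried skeletal muscle transcripts, with 10 muscle markers summing to 85.2 CPM against at most 0.681 CPM in any other library. In ISOGK-treated mouse 3 short transcripts were low and long ones high relative to the other 3 mice of its group, and in ISOGK-treated mouse 4 the reverse held. For the 10 genes, values without ISOGK-treated mouse 3 are given beside the calls that change when it is left out. Separate animals are given only by the library titles, so the p-values measure the spread between these libraries.

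All 10 genes passed the filter on low counts, and edgeR's quasi-likelihood test called 1 of them, *Gpx3*, at an adjusted p under 0.05. Among all 12307 genes tested 929 were called, which is 7.55%. Of all tested genes 4.11% were called higher with ISOGK (506) and 3.44% lower (423), while scaling by library size alone gave 262 higher and 804 lower. With an added threshold of 1 on the absolute log2 fold change 1.63% of all genes were called, and none of the 10 was (largest value 0.85). At an unadjusted edgeR p under 0.05 there were 4 of the 10 genes, and 2973 of all 12307 genes tested. DESeq2 called 1435 of all genes tested. The log2 fold change was above 0 for 7 of the 10 genes and below 0 for 3, with a median of 0.13 against 0.00 over all tested genes. The median size of the difference, regardless of direction, was 0.18 for the 10 genes and 0.19 over all tested genes. After TMM scaling the groups did not overlap for 2 of the 10 genes, *Gpx3* and *Sod2*, and for 15.3% of all tested genes. As a share of all counts, without this scaling, the groups overlapped for both of these genes.

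The abundance of these transcripts spanned a wide range. Per kilobase of transcript, the length-scaled level was highest for *Selenop*, with a mean of 3180 CPM per kilobase in vehicle-treated and 2958 in ISOGK-treated mice. *Gpx1* followed with 1094 and 1146, *Cat* with 961 and 942, and *Sod1* with 576 and 670. *Gpx1* lay above *Cat* in 7 of 8 libraries, so this pair did not separate. The middle of the order was taken by *Gpx4* (93.8 and 148 CPM per kilobase), *Prdx5* (76.2 and 95.2), *Prdx3* (54.6 and 60.5) and *Sod2* (23.5 and 25.2). *Gpx4* lay above *Prdx5* in all 8 libraries, although their ranges over libraries overlapped. At the low end were *Gpx3* (7.78 and 14.1) and *Sod3* (6.91 and 5.16), which exchanged places in 1 of 8 libraries. Together the 10 genes took 0.989% to 1.21% of all counts per library, and *Selenop* and *Cat* made up 77.1% to 83.6% of that share.

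**Figure D1:**
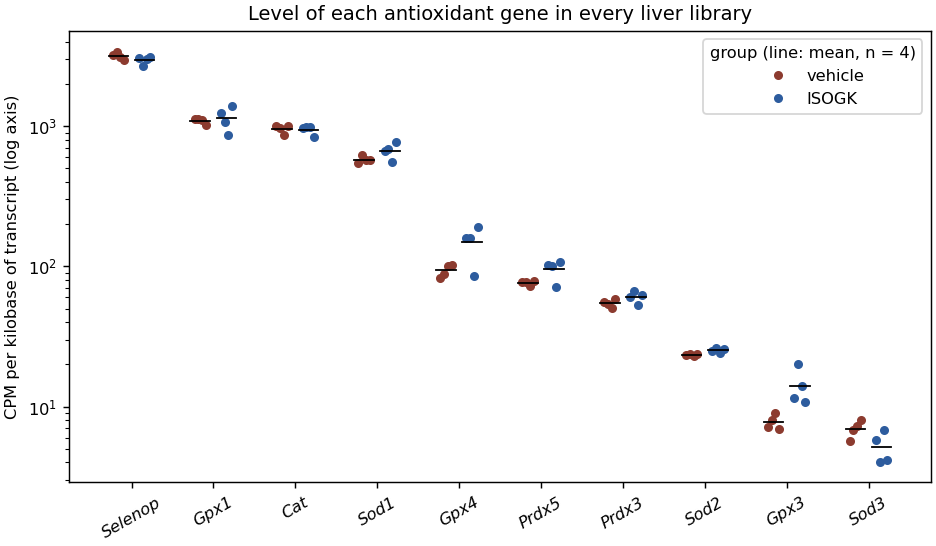
Level of each gene in CPM per kilobase of transcript (vertical log axis), with 1 point per liver library and a line at the mean of each group of 4; vehicle-treated mice are red and ISOGK-treated mice are blue. Mean levels run from 3180 for *Selenop* to 6.91 for *Sod3* in the vehicle group, and the shift between groups is small beside that range.

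*Gpx3* encodes the secreted glutathione peroxidase of plasma. Its normalized level was 11.4, 12.9, 14.4 and 10.9 CPM in vehicle-treated mice 1 to 4 and 18.2, 31.9, 22.3 and 17.1 CPM in ISOGK-treated mice 1 to 4. Every ISOGK-treated mouse lay above every vehicle-treated mouse, and ISOGK-treated mouse 2 was the highest. As a share of all counts, without TMM scaling, the groups overlapped, with 0.00151% in ISOGK-treated mouse 4 and 0.00156% in vehicle-treated mouse 3. *Gpx3* rose from a mean of 12.4 ± 1.54 CPM (SD, n = 4) to 22.4 ± 6.74 CPM. On the log2 scale the difference was 0.85 (standard error, SE, of 0.19 and edgeR adjusted p = 0.0202). This is 1.80-fold, with a 95% interval of 1.36 to 2.39. The value rests on 228 to 605 counts per library and was 0.85 without ISOGK-treated mouse 3 (edgeR adjusted p = 0.0398). The call was lost when vehicle-treated mouse 1, 2 or 4 was left out, with log2 fold changes of 0.81, 0.87 and 0.79 and edgeR adjusted p of 0.063, 0.0621 and 0.0591. It was also lost with scaling by library size alone (0.72, edgeR adjusted p = 0.0501).

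Markers of other cell types were set beside the rise of *Gpx3*. The kidney marker in the table, *Slc12a1*, had at most 2 counts in any library, and the adipocyte marker in the table, *Cfd*, at most 13, while the other 4 markers of each list were not in the table used here. The 5 cholangiocyte markers summed to 27.5 to 34.8 CPM with vehicle and to 46.6, 69.1, 48.9 and 28.2 CPM in ISOGK-treated mice 1 to 4. Most of this sum was *Spp1* in every library. *Spp1* had 19.9 to 27.9 CPM with vehicle and 35.7, 55.0, 35.3 and 20.5 CPM in ISOGK-treated mice 1 to 4. Only *Sox9*, 1 of the 5 markers, was called higher by edgeR. Of these 5, 4 had an unadjusted p under 0.05, and DESeq2 called 2. *Krt7*, with 6 to 29 counts per vehicle library, passed the filter on low counts only with the help of ISOGK libraries. The 5 neutrophil markers summed to 3.57 to 6.35 CPM with vehicle and 6.97 to 18.8 CPM with ISOGK, without overlap, and edgeR called 1 of the 3 tested, *S100a9*, higher. All 3 tested had an unadjusted p under 0.05 and were called by DESeq2. *Retnlg*, 1 of these 3, had 7 to 15 counts per vehicle library and 10 to 35 per ISOGK library. It passed the filter on low counts only through the ISOGK group, so no weight is placed on the tests of *Retnlg* and *Krt7*. The part of these cells in the level of *Gpx3* was not tested. In bulk liver, a change in the number of cells of a type and a change in RNA per cell cannot be told apart.

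*Gpx4* reduces lipid hydroperoxides within membranes and is the enzyme that guards cells against ferroptosis. Its level was 79.5, 85.2, 97.0 and 98.0 CPM in vehicle-treated mice 1 to 4 and 153, 152, 81.8 and 183 CPM in ISOGK-treated mice 1 to 4. ISOGK-treated mice 1, 2 and 4 lay above all vehicle-treated mice, while ISOGK-treated mouse 3 lay within the vehicle range, so the groups overlapped. The means were 89.9 ± 9.06 and 142 ± 42.8 CPM (SD, n = 4 each), a log2 fold change of 0.66 (SE 0.21, edgeR adjusted p = 0.0807), which did not pass the threshold. The 95% interval of the fold was 1.15 to 2.17. With ISOGK-treated mouse 3 left out the difference was 0.85 on the log2 scale (edgeR adjusted p = 0.00168), and the Wald test of DESeq2 on all 8 libraries gave 0.66 with an adjusted p of 0.0154. Reads of *Gpx4* may be shared with *Gpx4-ps2*, a transcribed processed pseudogene on chromosome 10.

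*Gpx1* encodes the cytosolic and mitochondrial glutathione peroxidase, the most abundant of the 3 in these livers. Its level was 1202, 1211, 1184 and 1094 CPM in vehicle-treated mice 1 to 4 and 1338, 1147, 933 and 1497 CPM in ISOGK-treated mice 1 to 4. The ISOGK-treated mice lay on both sides of the vehicle range, and their coefficient of variation was 19.8% against 4.58% with vehicle. The log2 fold change was 0.07 (SE 0.13, edgeR adjusted p = 0.805, 95% interval of the fold 0.856 to 1.28), and its sign turned with library size scaling (-0.07) and without ISOGK-treated mouse 4 (-0.04), while without ISOGK-treated mouse 3 it was 0.17 (edgeR adjusted p = 0.351). Red cells also hold much *Gpx1*. The 5 red cell markers summed to 102 to 130.2 CPM with vehicle and to 152.7, 151, 69.1 and 153.2 CPM in ISOGK-treated mice 1 to 4. The members of this list differed in direction. The globin genes lay above the vehicle range in ISOGK-treated mice 1, 2 and 4. *Alas2* had 58.3 to 80.4 CPM with vehicle and 40.2 to 68.0 CPM with ISOGK. Of these red cell markers 0 of 5 passed in edgeR, DESeq2 or limma-voom, and 2 had an unadjusted p under 0.05. Their part in the level of *Gpx1* was not tested.

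*Selenop* encodes selenoprotein P, the selenium carrier that hepatocytes secrete. It had 6746, 7081, 6509 and 6183 CPM in vehicle-treated mice 1 to 4 and 6338, 5578, 6247 and 6510 CPM in ISOGK-treated mice 1 to 4. The groups overlapped, and the highest ISOGK-treated mouse was level with vehicle-treated mouse 3. With 105681 to 179001 counts per library, its log2 fold change was -0.10 (SE 0.10, edgeR adjusted p = 0.553). The 95% interval of the fold, 0.805 to 1.08, was narrower than those of *Gpx3* and *Gpx4*. *Selenop* shares 439 bases with *Ccdc152* on the opposite strand, and the use of strand in counting is not given in the sources used here.

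**Figure D2:**
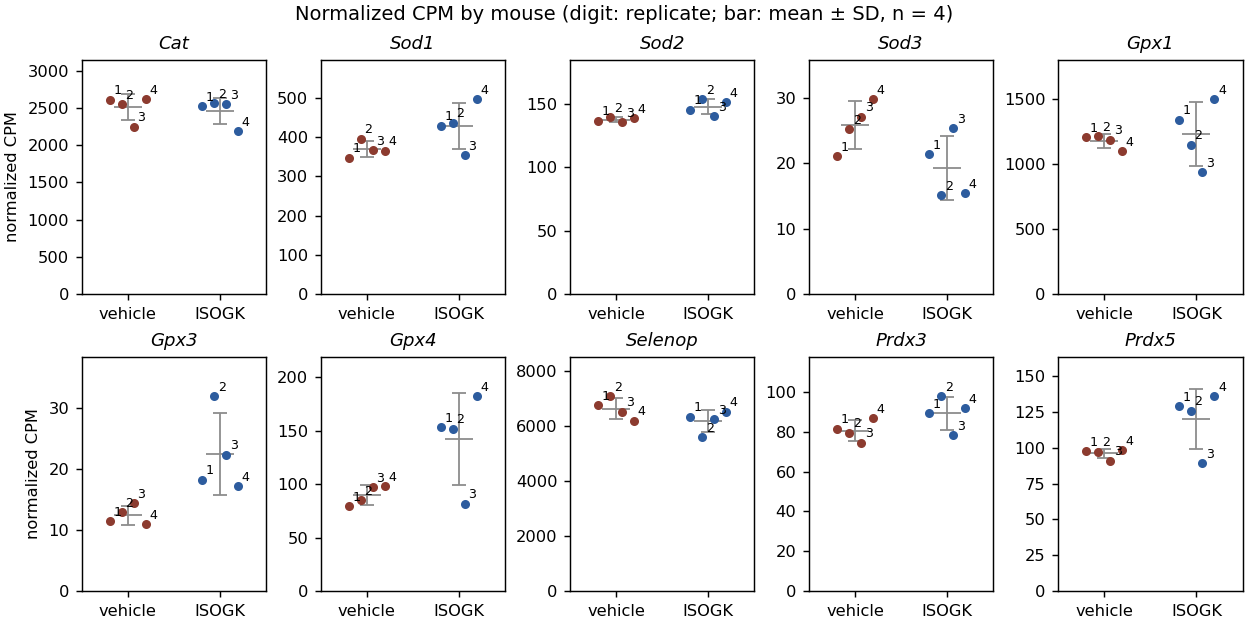
Normalized CPM of each of the 10 genes (vertical axis from 0, own scale per panel) in every mouse; digits give the replicate number, and bars give mean ± SD of 4 mice. For *Gpx3* all ISOGK-treated mice (17.1 to 31.9 CPM) lie above all vehicle-treated mice (10.9 to 14.4 CPM), and for *Gpx4*, *Gpx1*, *Sod1* and *Prdx5* ISOGK-treated mouse 3 is the lowest of its group.

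The 3 superoxide dismutases did not pass the test. *Sod1*, the copper-zinc enzyme of the cytosol, had 348, 397, 367 and 366 CPM in vehicle-treated mice 1 to 4 and 429.7, 437, 354 and 498 CPM in ISOGK-treated mice 1 to 4. ISOGK-treated mouse 3 lay within the vehicle range and the other 3 lay above it. The log2 fold change of *Sod1* was 0.22 (SE 0.11, edgeR adjusted p = 0.25, 95% interval of the fold 0.985 to 1.38), and 0.29 without ISOGK-treated mouse 3 (edgeR adjusted p = 0.0725). *Sod1* shares 650 bases with *Scaf4* on the opposite strand.

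*Sod2*, the manganese enzyme of mitochondria, was the steadiest of the 10 genes, with a coefficient of variation of 1.39% among vehicle-treated and 4.11% among ISOGK-treated mice. Its level was 137, 139.5, 135 and 139 CPM in vehicle-treated mice 1 to 4 and 145.5, 154, 140.3 and 151.5 CPM in ISOGK-treated mice 1 to 4. After TMM scaling the groups did not overlap, with the lowest ISOGK-treated mouse just above the highest vehicle-treated mouse. The log2 fold change was nevertheless 0.10 (SE 0.08, edgeR adjusted p = 0.471), with a 95% interval of the fold of 0.952 to 1.21, and it was -0.03 with scaling by library size alone. The standard error in this test draws on the spread of other genes of similar abundance and not on *Sod2* alone.

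*Sod3*, the extracellular enzyme bound to matrix around vessels, had 21.1, 25.2, 27.1 and 29.8 CPM in vehicle-treated mice 1 to 4 and 21.4, 15.1, 25.3 and 15.4 CPM in ISOGK-treated mice 1 to 4. ISOGK-treated mice 2 and 4 lay below the vehicle range and mice 1 and 3 within it. The log2 fold change was -0.42 (SE 0.17, edgeR adjusted p = 0.158, 95% interval of the fold 0.576 to 0.968), and without ISOGK-treated mouse 3 it was -0.58 (edgeR adjusted p = 0.0385). The 5 smooth muscle markers summed to 19.0, 21.4, 25.2 and 17.1 CPM in vehicle-treated mice 1 to 4. In ISOGK-treated mice 1 to 4 they summed to 14.2, 12.8, 11.03 and 18.8 CPM. Within the ISOGK group the sum was lowest in mouse 3, where *Sod3* was highest. Of the 4 tested, 0 passed the edgeR test (2 at an unadjusted p under 0.05, 1 with DESeq2, 0 with limma-voom). The part of these markers in the level of *Sod3* was not tested.

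*Cat*, the catalase of peroxisomes, had 2615, 2552, 2254 and 2624 CPM in vehicle-treated mice 1 to 4 and 2524, 2569, 2558 and 2193 CPM in ISOGK-treated mice 1 to 4. The groups overlapped throughout, with 1 low mouse in each. The means were 2512 ± 174 and 2461 ± 180 CPM (SD, n = 4 each), and the log2 fold change was -0.03 (SE 0.10, edgeR adjusted p = 0.89). At 41849 to 64527 counts per library, the 95% interval of the fold was 0.844 to 1.14.

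Catalase reaches the peroxisome by a signal at the end of the protein, as does a share of peroxiredoxin 5. The last codons of both genes are shown for this reason, with the 3 codons before the stop codon in capitals.
Cat, exon 13, chr2:103454756-103454779, minus strand: gcgaagggaaaaGCTAACCTGtaa
Prdx5, exon 6, chr19:6906846-6906869, minus strand: cccaacatcctcTCTCAACTCtga
Neither gene passed the test.

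Peroxiredoxins reduce peroxides with electrons from thioredoxin. *Prdx5*, found in mitochondria, peroxisomes and the cytosol, had 97.6, 97.4, 91.1 and 98.4 CPM in vehicle-treated mice 1 to 4 and 129, 126, 89.4 and 136 CPM in ISOGK-treated mice 1 to 4. ISOGK-treated mouse 3 was the lowest of all 8 and the other 3 ISOGK-treated mice lay above the vehicle range. The log2 fold change of *Prdx5* was 0.32 (SE 0.12, edgeR adjusted p = 0.132, 95% interval of the fold 1.04 to 1.5), and 0.43 without ISOGK-treated mouse 3 (edgeR adjusted p = 0.0108). *Prdx5* shares 409 bases with *Trmt112* on the opposite strand. *Prdx3*, the mitochondrial member, had 81.7, 79.6, 74.7 and 86.9 CPM in vehicle-treated mice 1 to 4 and 89.4, 98.1, 78.4 and 92.1 CPM in ISOGK-treated mice 1 to 4. The groups overlapped through ISOGK-treated mouse 3, and the log2 fold change was 0.15 (SE 0.09, edgeR adjusted p = 0.369, 95% interval of the fold 0.961 to 1.28).

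The spread between mice differed between the groups for these genes. The median coefficient of variation of the 10 genes was 6.0% among vehicle-treated and 15.6% among ISOGK-treated mice, while over all tested genes it was 11.5% and 15.8%. ISOGK-treated mouse 3 was the lowest of its group for 6 of the 10 genes, *Sod1*, *Sod2*, *Gpx1*, *Gpx4*, *Prdx3* and *Prdx5*, and for 27.4% of all tested genes. Of these 6, 5 had transcripts of at most 1500 bases, and among all tested genes of that length ISOGK-treated mouse 3 was the lowest for 57.8%. ISOGK-treated mouse 4 was the highest for 4 of the same 5 genes, against 56.2% of tested genes of that length.

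Transcript length moved with the libraries across the whole table. Among 278 genes with transcripts of at most 1000 bases, the median deviation on the log2 scale from the other mice of the group was -0.34 in ISOGK-treated mouse 3 and 0.34 in ISOGK-treated mouse 4, and between -0.10 and 0.05 in the other 6 mice. Among 728 genes with transcripts over 6000 bases it was 0.18 and -0.13 in these mice. The median log2 fold change between the groups was 0.24 for the shortest class and -0.10 for the longest. The transcripts of *Sod1* (641 bases), *Gpx4* (959) and *Gpx1* (1072) are the shortest of the 10 genes, and *Sod2* (5861) is the longest. The cause of this pattern was not tested.

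**Figure D3:**
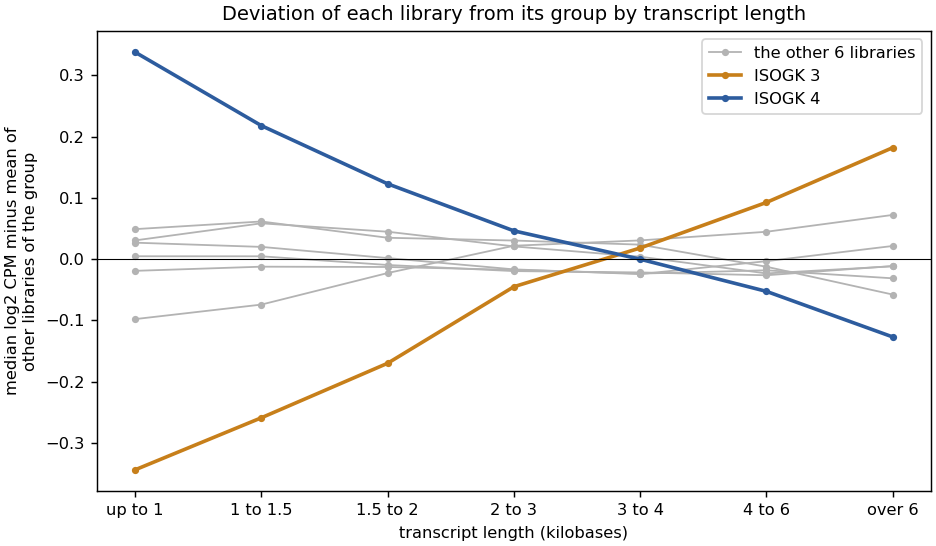
Median deviation of each library from the other libraries of its group, on the log2 CPM scale (vertical axis), for genes in classes of transcript length in kilobases (horizontal axis). ISOGK 3 runs from -0.34 in the shortest class to 0.18 in the longest and ISOGK 4 from 0.34 to -0.13, while the other 6 libraries stay near 0.

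A fit with an offset for transcript length in each library, added after the data had been seen, called 7.81% of all genes and 1 of the 10, again *Gpx3* (log2 fold change 0.78, edgeR adjusted p = 0.0426). With this offset *Gpx4* had 0.48 (edgeR adjusted p = 0.0712), *Prdx5* 0.20 (edgeR adjusted p = 0.211) and *Sod1* 0.00 (edgeR adjusted p = 0.981). *Gpx1* turned to -0.08 and *Sod2* moved to 0.19, and neither passed the test. Without ISOGK-treated mouse 3 edgeR called 9.92% of all genes and 4 of the 10, with *Gpx3*, *Gpx4* and *Prdx5* higher and *Sod3* lower. These alternatives moved *Sod1*, *Gpx1*, *Gpx4* and *Prdx5* in opposite directions.

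**Figure D4:**
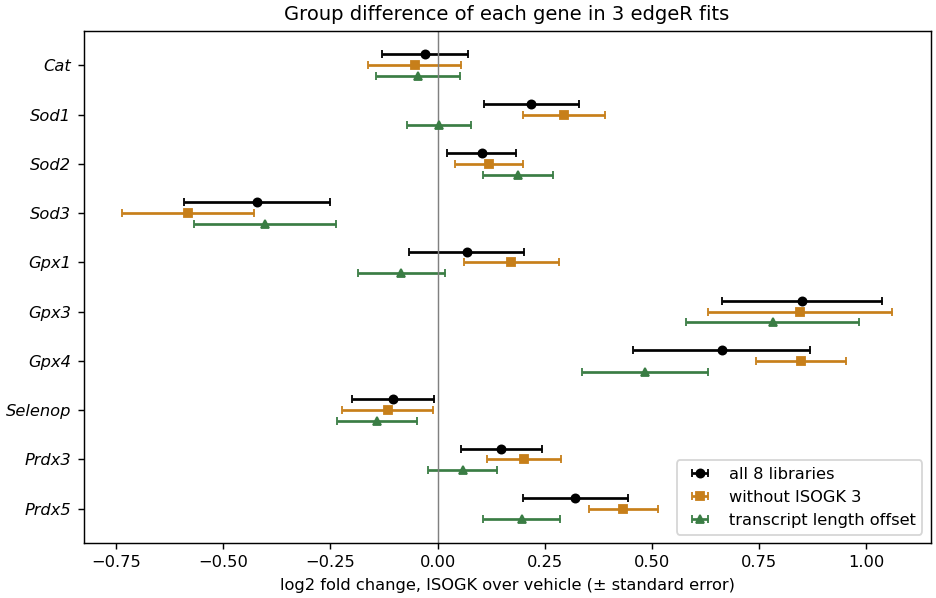
Log2 fold change of ISOGK over vehicle (horizontal axis, bars are ± 1 standard error) for the 10 genes in 3 edgeR fits: all 8 libraries, without ISOGK-treated mouse 3, and with a transcript length offset. *Gpx3* lies between 0.78 and 0.85 in all 3 fits, while *Gpx4* runs from 0.48 to 0.85 and *Sod1* from 0.00 to 0.29.

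The genes around these enzymes were counted in lists compiled by hand. For the list counts below, the background is all 12307 genes tested. Of these, edgeR called 929, DESeq2 called 1435, and 2973 had an unadjusted edgeR p under 0.05. Of the other glutathione peroxidases and peroxiredoxins, 0 of 7 tested passed in edgeR, DESeq2 or limma-voom, 1 had an unadjusted p under 0.05, and the median log2 fold change was -0.05. *Prdx1* and *Prdx6*, the most abundant of them, had 593 and 713 CPM (log2 fold change 0.27, edgeR adjusted p = 0.19) and 315 and 282 CPM (-0.16, edgeR adjusted p = 0.318) with vehicle and ISOGK. In the thioredoxin system edgeR called 2 of 14 tested genes higher and 0 lower, and DESeq2 called 3. Without ISOGK-treated mouse 3 edgeR called 3 higher, *Glrx5* being the added one, and with the length offset it called 1 lower, *Txn1*. *Srxn1*, the sulfiredoxin that restores overoxidized peroxiredoxins, rose from 32.3 ± 2.84 to 65.0 ± 2.29 CPM (SD, n = 4 each; log2 fold change 1.01, edgeR adjusted p = 0.000121). *Glrx*, a glutaredoxin that reduces glutathione-bound proteins, rose from 47.2 to 82.5 CPM (0.80, edgeR adjusted p = 0.0013).

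The list of glutathione and NADPH supply held 3 risen and 1 fallen gene among 15 tested with edgeR, and DESeq2 called 5. *Gsr*, glutathione reductase, rose from 54.7 to 74.3 CPM (log2 fold change 0.44, edgeR adjusted p = 0.0154). *Oplah*, which returns oxoproline to glutamate in the glutathione cycle, rose from 93.5 to 171 CPM (0.87, edgeR adjusted p = 0.00236), and *Slc25a39*, the mitochondrial glutathione importer, from 208 to 306 CPM (0.55, edgeR adjusted p = 0.0116). *Chac2*, which degrades glutathione, fell from 15.4 to 9.98 CPM (-0.63, edgeR adjusted p = 0.0256). The calls of *Gsr* and *Chac2* were lost in 2 and 4 of 17 alternative analyses.

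Of the selenoproteins outside the 10 genes, edgeR called 1 of 13 tested higher and 0 lower, with 6 at an unadjusted p under 0.05 and 2 called by DESeq2. Without ISOGK-treated mouse 3 edgeR called 2 higher, with *Selenow* added, and with the length offset 2 higher, with *Selenoi* added. The gene called on all 8 libraries was *Dio1*, the deiodinase that activates thyroid hormone in liver, with 41.7 and 98.0 CPM (log2 fold change 1.23, edgeR adjusted p = 0.00178). *Sephs2*, which makes the selenium donor and is itself a selenoprotein, had 786 and 616 CPM (-0.35, edgeR adjusted p = 0.2), and *Selenof* 108 and 119 CPM (0.13, edgeR adjusted p = 0.649). Among 10 tested genes of selenocysteine synthesis and selenoprotein P uptake edgeR called 1 higher and 1 lower, and DESeq2 called 3. Without ISOGK-treated mouse 3 edgeR called 3 higher and 0 lower, with *Eefsec* (edgeR adjusted p = 0.0415) and *Trnau1ap* (edgeR adjusted p = 0.0132) added and *Scly* lost. *Lrp2*, the receptor megalin that takes up selenoprotein P in the kidney, had 0.233 CPM with vehicle and 1.49 CPM with ISOGK, a low level in liver. Its log2 fold change was 2.63 (edgeR adjusted p = 0.00389). Counts were 3 to 10 per vehicle library and 19 to 38 per ISOGK library. *Lrp2* passed the filter on low counts only through the ISOGK group, so no weight is placed on its call. *Scly*, selenocysteine lyase, fell from 63.8 to 50.2 CPM (-0.34, edgeR adjusted p = 0.0459), and this call was lost in 9 of 17 alternatives.

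Genes that supply copper, zinc and manganese to the superoxide dismutases held 0 genes called higher and 1 called lower by edgeR among 10 tested, with 3 at an unadjusted p under 0.05 and 3 called by DESeq2. Without ISOGK-treated mouse 3 edgeR called *Ccs* higher (edgeR adjusted p = 0.0385) and 3 lower, *Slc39a14*, *Slc31a1* and *Atp7a*. *Slc39a14*, a carrier of manganese, zinc and iron, fell from 311 to 193 CPM (log2 fold change -0.69, edgeR adjusted p = 0.0101). The metallothioneins *Mt1* (358 and 430.4 CPM, edgeR adjusted p = 0.759) and *Mt2* (207 and 322 CPM, edgeR adjusted p = 0.464) did not pass the test.

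Among the 16 tested oxidases counted here, which make hydrogen peroxide or superoxide, 4 fell in edgeR and DESeq2 called 7, with a median log2 fold change of -0.36 against 0.00 over all tested genes. *Paox*, which oxidizes acetylated polyamines, fell from 25.2 to 13.3 CPM (log2 fold change -0.92, edgeR adjusted p = 0.00461). *Xdh*, xanthine dehydrogenase, fell from 175 to 109 CPM (-0.68, edgeR adjusted p = 0.00483), and *Nox4*, a NADPH oxidase, from 43.9 to 28.1 CPM (-0.64, edgeR adjusted p = 0.0305). The call of *Nox4* was lost in 6 of 17 alternatives, with adjusted p up to 0.0843. The fourth, *Maob*, a monoamine oxidase named after its value was seen, fell from 187 to 141 CPM (-0.41, edgeR adjusted p = 0.0376). With the length offset 6 of the 16 fell, and without ISOGK-treated mouse 3 the count was 3. Of 10 tested genes for import of proteins into the peroxisome matrix, *Pex13* (0.34, edgeR adjusted p = 0.0393) and *Pex14* (0.36, edgeR adjusted p = 0.03) rose and *Pex26* fell by 0.47 on the log2 scale (edgeR adjusted p = 0.0489). These 3 calls were lost in 9, 8 and 10 of 17 alternatives, and DESeq2 called 6 of the 10. Genes named here from the fits without mouse 3 or with the offset were chosen after their values were seen.

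**Figure D5:**
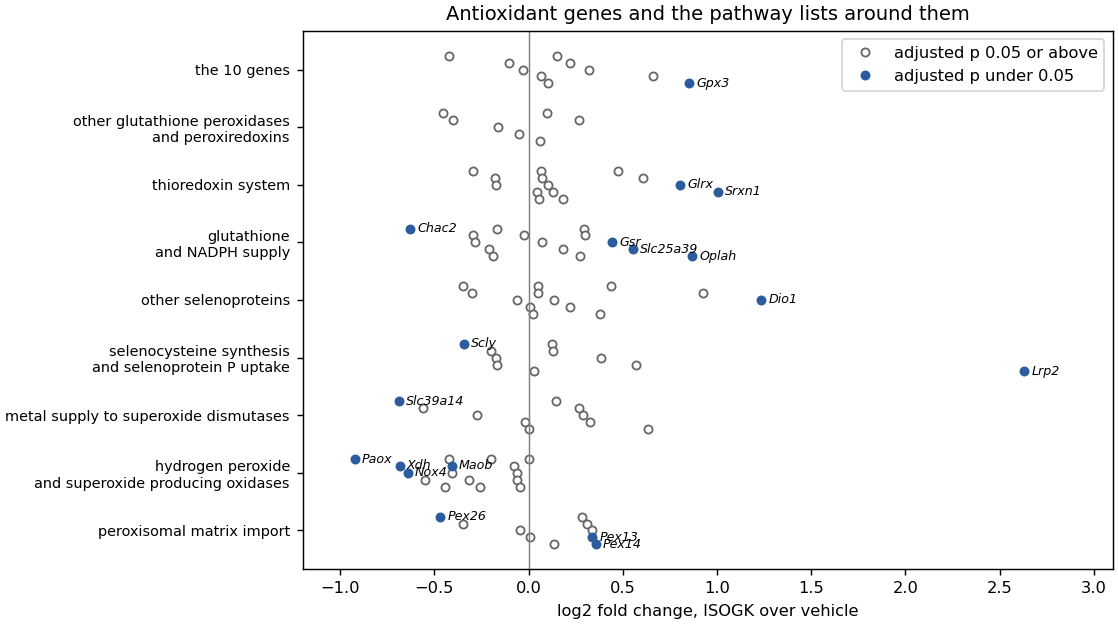
Log2 fold change of ISOGK over vehicle (horizontal axis) for each tested gene of the 10 and of 8 pathway lists, with filled points at an edgeR adjusted p under 0.05. *Gpx3* is the only filled point among the 10, and the 16 oxidases shown hold 4 filled points below 0.

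For the 3 genes with the smallest adjusted p, the tested genes of most similar pattern were sought by the root mean square difference of centred log2 CPM over the 8 libraries. For *Gpx3* these were *Hsd17b7* (0.146), *Abhd1* (0.168) and *Ptk7* (0.171), against a median of 0.538 over all genes. For *Gpx4* they were *Tspo* (0.077), *Trnau1ap* (0.0803) and *Rpl10a* (0.104), against 0.499, and all 3 had transcripts of at most 1130 bases. For *Prdx5* they were *Psmb1* (0.059), *0610010K14Rik* (0.0596) and *Actr10* (0.0669), against 0.321. In the same order, the transcripts like *Gpx3* had 4612, 1352 and 4235 bases, and those like *Prdx5* had 1758, 778 and 4022.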

How the data were processed

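Liver RNA was sequenced from 4 vehicle-treated and 4 ISOGK-treated mice, grouped by library title, and the columns named for DMSO were taken as the vehicle group because the study names DMSO as its vehicle. Per the labels and methods, the authors aligned single-end reads to mm10 with HISAT2 2.0.5, computed raw counts per gene with StringTie 1.3.3b and deposited these whole-number counts without normalization. The study normalized with DESeq2 1.20.0, and those values were not used. Annotation release and strand use are not given in the sources used here.

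Here, filterByExpr (minimum count 10, minimum total 15) kept 12307 of 16540 genes. These were scaled with TMM factors (0.883 to 1.09) and compared in edgeR 4.0.16 under R 4.3.3 (quasi-likelihood test, robust option, Benjamini-Hochberg adjustment over all genes tested). CPM use TMM factors, and log2 CPM a prior count of 2. The common biological coefficient of variation was 0.164. Intervals of folds are at 95% and use the degrees of freedom of the fit. The code was tested on simulated counts. Lengths and positions came from GENCODE M21 (GRCm38), with 16211 symbols matched directly, 224 by synonym and 105 not. Named were the 10 genes, up to 3 called genes per direction in each list by smallest adjusted p (with fewer than 2 called, also the 2 most abundant), and 3 genes of like pattern for each of 3 members. 1 oxidase is not reported here and was left out of the count, median and plot of its list. The members and lists were chosen with earlier results of these data known. Alternatives were DESeq2 1.42.0, limma-voom (limma 3.58.1), other scalings and filters, no robust option, a replicate block, each library left out, and a length offset (loess, span 0.5) added later.

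Of the other cell markers, 1 of 7 Kupffer cell markers, *Cd68*, was called lower by edgeR (2 called by DESeq2; sums 981 to 1240.0 CPM with vehicle, 765 to 998 with ISOGK). Stellate cell markers (268 to 374 and 207 to 400.0 CPM) and endothelial markers (246.5 to 279.6 and 242 to 283 CPM) held 0 edgeR calls of 6 and 5 (1 and 0 at an unadjusted p under 0.05, 1 and 0 with DESeq2, 0 and 0 with limma-voom).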

Additional observations from a re-analysis of the deposited data

Results flagged for a closer look

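In 4 of the 64 groups of 4 libraries examined, 1 library stood farther from the rest than Dixon's 95% critical value allows, and chance alone gives about 1 in 20, or 3.2 here. *Cat* in ISOGK-treated mouse 4 was 2193 CPM against 2524 to 2569 CPM in the other 3 ISOGK-treated mice (gap over range 0.881). *Prdx5* in vehicle-treated mouse 3 was 91.1 CPM against 97.4 to 98.4 CPM (0.852). *Sephs2* in vehicle-treated mouse 2 was 906.5 CPM against 736 to 761 CPM (0.854). *Slc39a14* in vehicle-treated mouse 3 was 269 CPM against 323 to 328 CPM (0.911). Leaving out the library named turned the sign of *Cat*, which was not called either way, and changed neither the sign nor the call of the other 3 genes.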

How the results depend on the processing

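Over 17 alternatives 157 of 170 log2 fold changes of the 10 genes kept their direction and side of the threshold, 5 turned sign, 4 gained a call and 4 lost one. The count of genes called by edgeR, 929, was 1435 with DESeq2, 961 with the length offset, and 379 (without vehicle-treated mouse 2) to 1235 (without ISOGK-treated mouse 3) with 1 library left out. At an absolute log2 fold change over 1 it was 200, 254 with DESeq2, and 123 to 250 with 1 library left out. Of the 10 genes, DESeq2 called 2 (*Gpx3* and *Gpx4*), library size alone 0, and leaving out 1 library 0 to 4. With library size alone the median log2 fold change of all genes was -0.13.

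Signs turned for *Sod2* (-0.029) and *Gpx1* (-0.073) with library size alone, for *Gpx1* with the length offset (-0.085), and without ISOGK-treated mouse 4 for *Cat* (0.022) and *Gpx1* (-0.042). With 1 library left out, log2 fold changes ran from -0.078 to 0.022 for *Cat*, -0.582 to -0.32 for *Sod3*, -0.042 to 0.172 for *Gpx1*, 0.63 to 0.958 for *Gpx3*, 0.52 to 0.848 for *Gpx4* and 0.256 to 0.433 for *Prdx5*. *Gpx3* was 0.72 with library size alone and *Gpx4* 0.66 with DESeq2. The cause of these changes was not tested.

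Deviations of libraries of the same replicate number had correlations of 0.013, -0.014, 0.075 and 0.085. The labels used here do not say what the number stands for, and a shared batch was not tested. With a replicate block edgeR called 827 genes, 688 of them shared, and *Gpx3* stayed called (adjusted p = 0.0099). Depth limits *Gpx3* and *Sod3* most, with 228 to 605 and 286 to 697 counts per library.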
